A study of Mus musculus and Rattus norvegicus with 35 samples.

Results

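The regions described here were 3914 mouse circular RNAs (circRNAs) built from exactly 2 exons. They were taken from the deposited list of circRNAs marked MEA, an abbreviation that the sources used here do not spell out, which gives each circle as blocks on the mm9 genome. Touching blocks were merged, and a circle was kept when 2 separate blocks remained, it had a row in the mouse circRNA abundance table, and that table named a host gene for it. These two-exon circles made up 13.7% of the 28482 circRNAs in the table and 14.9% of their reads, 60270 of 403379. The same list held 1157 single-exon circles, 3988 three-exon circles and 2880 circles of 10 or more exons with a host. The abundance values chose none of them.

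All samples used came from C57BL/6 mice without a stated genotype change or treatment. Brain, heart, liver, lung and testis each had 1 rRNA-depleted library at 14 weeks of age and 2 at 20 weeks. Hippocampus was sampled with 2 libraries each at embryonic day 18 (E18) and postnatal days 1, 10 and 30 (P1, P10 and P30). At 4 weeks there was 1 library each of hippocampal homogenate, of synaptosomes, the pinched-off nerve endings recovered from it, and of the dendrite-rich neuropil and the cell-body layer (somata) of the CA1 field. A further 14-week brain library was made by poly(A) selection and stayed out of every fit. The labels do not say that libraries of a group came from separate animals, so p-values measure the spread between these libraries, which may be technical. Because these are bulk samples, fewer cells of a type and less RNA per cell cannot be told apart in any difference below.

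A circRNA forms when the splicing machinery joins the end of a downstream exon back to the start of an upstream exon of the same transcript. In a circle of more than 1 exon the intron between the exons is usually spliced out as well, so the product is a closed ring of exons that carries no cap and no poly(A) tail and resists enzymes that digest RNA from its ends. CircRNAs are generally long-lived and are known to be abundant in brain.

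The feature that identifies each circle is its back-splice junction. The 5 sequences that follow span this junction for circles on which the results below turn: the widely detected Tlk1 circle, the brain circle of Rims1, and circles whose own highest levels were in lung (Lamp3), heart (Atp2a2) and liver (Adk). Lower case marks the last 20 bases of the second exon and capitals mark the first 20 bases of the first exon, read 5′ to 3′ on the transcribed strand. They were read from GENCODE vM21 transcripts (GRCm38) with neighbouring exons of the lengths given by the mm9 blocks.
Tlk1: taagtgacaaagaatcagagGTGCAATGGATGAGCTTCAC
Rims1: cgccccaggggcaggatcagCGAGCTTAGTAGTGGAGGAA
Lamp3: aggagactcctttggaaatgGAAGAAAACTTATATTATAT
Atp2a2: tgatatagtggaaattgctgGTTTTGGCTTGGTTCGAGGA
Adk: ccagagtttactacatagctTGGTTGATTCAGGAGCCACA

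Small circles can be shown whole. The Tlk1 circle lies at chr2:70608061-70625052 on the minus strand (mm9) and holds exons 2 and 3 of a 20-exon transcript. Its 119-base first exon (lower case) and 72-base second exon (capitals) lie on either side of a removed intron of 16801 bases. The Lamp3 circle at chr16:19673484-19676173, minus strand, holds exons 4 and 5, of 58 and 171 bases. The shortest circle among those with at least 20 reads over the tissue libraries was that of Gtf3c6, a subunit of the RNA polymerase III initiation factor TFIIIC. Its exons of 64 and 45 bases are separated by an intron of 92 bases at chr10:39974070-39974270, minus strand.
Tlk1: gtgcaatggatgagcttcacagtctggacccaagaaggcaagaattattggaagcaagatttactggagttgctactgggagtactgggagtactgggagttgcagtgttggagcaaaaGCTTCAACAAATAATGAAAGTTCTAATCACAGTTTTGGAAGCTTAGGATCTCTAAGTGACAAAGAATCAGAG
Lamp3: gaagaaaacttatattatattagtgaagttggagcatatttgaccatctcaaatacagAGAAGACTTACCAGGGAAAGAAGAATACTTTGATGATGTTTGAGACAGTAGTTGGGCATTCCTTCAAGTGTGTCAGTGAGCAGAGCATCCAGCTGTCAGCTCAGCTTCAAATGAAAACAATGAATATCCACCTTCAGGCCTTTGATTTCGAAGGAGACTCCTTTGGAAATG
Gtf3c6: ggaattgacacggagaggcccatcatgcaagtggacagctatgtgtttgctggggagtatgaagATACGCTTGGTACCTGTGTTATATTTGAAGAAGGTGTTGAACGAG

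Two-exon circles were short rings drawn from much longer stretches of the genome. Their spliced length had a median of 297 bases, with quartiles of 236 and 398 bases and a range of 94 to 9547 bases. The genomic span had a median of 2688 bases, of which the intron between the exons took a median of 2226 bases. Both exons were of ordinary size, with medians of 142 bases for the first and 143 bases for the second, and neither position held the longer exon more often: the first was longer in 1979 circles, the second in 1904, and 31 had equal exons. Single-exon circles had a longer median, 376 bases, and a wider spread (quartiles 198 and 806 bases), so adding a second exon did not go with a longer circle. Three-exon circles had a median of 411 bases.

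**Figure D1:**
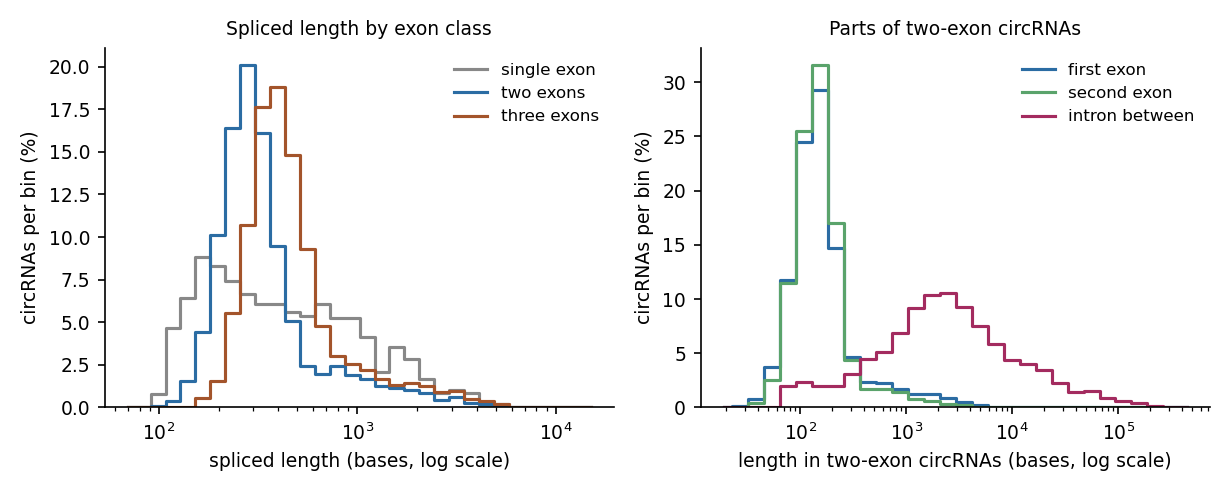
Spliced length of single-exon, two-exon and three-exon circles in bases on a log axis, as the percentage of each class per bin (left), and length of the first exon, the second exon and the intron between them in two-exon circles, also in bases on a log axis (right). On the left the two-exon class forms a narrow peak around its median of 297 bases, while single-exon circles spread more widely on both sides.

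The longest spliced circle with at least 20 tissue reads was that of Tcf20, a transcriptional coregulator, at chr15:82655661-82687714, where a 5772-base exon 2 joined a 94-base exon 3.

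An annotated transcript with neighbouring exons of the same 2 lengths was found for 3538 circles (90.4%). First and last exons of transcripts, which lack a splice acceptor and a splice donor respectively, were almost never part of a circle: only 4 matched circles began with exon 1, and 1 ended with the last exon. Exon 2 was the first exon of 757 matched circles (21.4%), against 37.5% of matched single-exon circles and 20.4% of matched three-exon circles. Coding sequence alone filled 3044 of the matched circles (86.0%), and 357 more joined 5′ untranslated sequence to coding sequence. Of the 3044, 1180 (38.8%) had a length divisible by 3, and 1176 of these had no stop codon in the host's frame on a full turn round the ring; this describes sequence only and is no measure of translation. The median GC content was 48.8%, between 50.3% for single-exon and 47.7% for three-exon circles.

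Most hosts gave only 1 two-exon circle, and a minority gave several. The circles came from 2665 host genes, of which 1876 had 1, 507 had 2 and 282 had 3 or more. Usp34, which encodes a large deubiquitinating enzyme, had the most, 8. Ash1l (a histone methyltransferase), Dlgap1 (a postsynaptic density scaffold), Mycbp2 (a ubiquitin ligase of axon and synapse development), Eif4g3 (a translation initiation factor) and Ap3b1 (a subunit of the AP-3 vesicle adaptor) had 7 each. The Usp34 circles were rare, several of them with 2 to 9 reads over all mouse libraries. An acceptor site was shared with another MEA circle by 1628 two-exon circles (41.6%) and a donor site by 1524 (38.9%), while 1379 (35.2%) shared neither.

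Some related genes gave circles from corresponding exons. Among pairs of two-exon circles from different hosts, 222 had the same lengths for both exons. Their sequences were mostly unrelated, with a median identity of 27.3%, but 45 pairs reached at least 60%. Ep300 and Crebbp, the paralogous histone acetyltransferases p300 and CBP, both had a circle starting at exon 18 with exons of 240 and 89 bases and 79.6% identity, with 166 reads for Ep300 and 2 for Crebbp over all mouse libraries. Nkain2 and Nkain3, which encode brain proteins that interact with the sodium pump, shared exons of 138 and 81 bases from exon 2 at 74.0% identity and had 110 and 9 reads. In both pairs the read totals were far apart. The ephrin receptors Epha3 and Epha7, which guide axons, both had a circle of 156 and 336 bases from exons 4 and 5. Their identity of 58.1% lay just under that limit, and their totals were alike, at 96 and 93 reads. The Epha3 and Epha7 junctions, in the same case convention as before, have the same letter at 27 of 40 positions.
Epha3: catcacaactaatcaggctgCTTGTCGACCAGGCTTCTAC
Epha7: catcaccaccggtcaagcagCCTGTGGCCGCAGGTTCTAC

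The abundance values are in RPM, read counts relative to a library total, and are not scaled by length. Each value was a whole multiple of a step specific to its library, so whole reads could be recovered. The 28 mouse libraries held 127 to 43523 circRNA reads, with 1231 to 23286 in the 15 tissue libraries. Marker genes matched the labels in every tissue: the neuronal Snap25 was at 1846 to 1950 TPM in brain and at most 1.46 TPM elsewhere, and the sperm protamine Prm1 was at 7379 to 16285 TPM in testis and at most 7.71 TPM elsewhere. In hippocampus the immature-neuron gene Dcx went from 231 to 321 TPM at E18 to 9.14 to 10.2 TPM at P30.

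Reads were concentrated in few two-exon circles. The median circle had 4 reads over all mouse libraries, and 1984 (50.7%) had fewer than 5. The 10 highest held 11.5% of the reads and the 100 highest 38.1%. In the 15 tissue libraries, 2653 of the 3914 had at least 1 read: 1782 in brain, 1022 in testis, 682 in lung, 638 in heart and 451 in liver. A read in all 5 tissues was seen for 105 circles, and in all 15 libraries for 6. The number of circRNA reads also differed between tissues, and its part in these detection counts was not tested.

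Two-exon circles took a different share of circRNA abundance in different tissues. Their share was 9.58% ± 0.329 in testis, 13.5% ± 0.332 in brain, 14.6% ± 0.591 in heart, 19.4% ± 0.698 in liver and 20.0% ± 1.43 in lung (mean ± SD, n = 3 each). The testis libraries, at 9.20% to 9.81%, lay below all 12 others, and the liver and lung libraries, at 18.6% or more, lay above the heart, brain and testis libraries. On log2 odds, testis differed from the other tissues by −0.92 (two-sided exact permutation test over libraries, p = 0.00220, the smallest of 455 arrangements; 0.0110 adjusted over 5 tissues). Lung differed by 0.63 (exact permutation p = 0.0418, adjusted 0.104) and liver by 0.56 (exact permutation p = 0.0791, adjusted 0.132), so neither passed after adjustment. Brain (−0.22) and heart (−0.06) did not pass either, with exact permutation p = 0.459 and 0.930.

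The low share in testis was seen at both depths and both ages. It was 9.72% in the 14-week library with 23286 circRNA reads and 9.81% and 9.20% in the 20-week libraries with 5606 and 6053. Within the 20-week libraries alone the testis difference was −0.93, with an exact permutation p of 0.0222, the smallest of 45 arrangements. The summed level of the class told a different order: 3732 ± 400 RPM in brain, 964 ± 574 RPM in testis, 852 ± 118 RPM in lung, 528 ± 70.2 RPM in heart and 275 ± 33.5 RPM in liver (mean ± SD, n = 3). Testis thus ranked second by sum and last by share; its 14-week library, at 1626 RPM, stood above the 20-week libraries, at 623 and 642 RPM. Testis and lung sums did not differ beyond this spread.

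**Figure D2:**
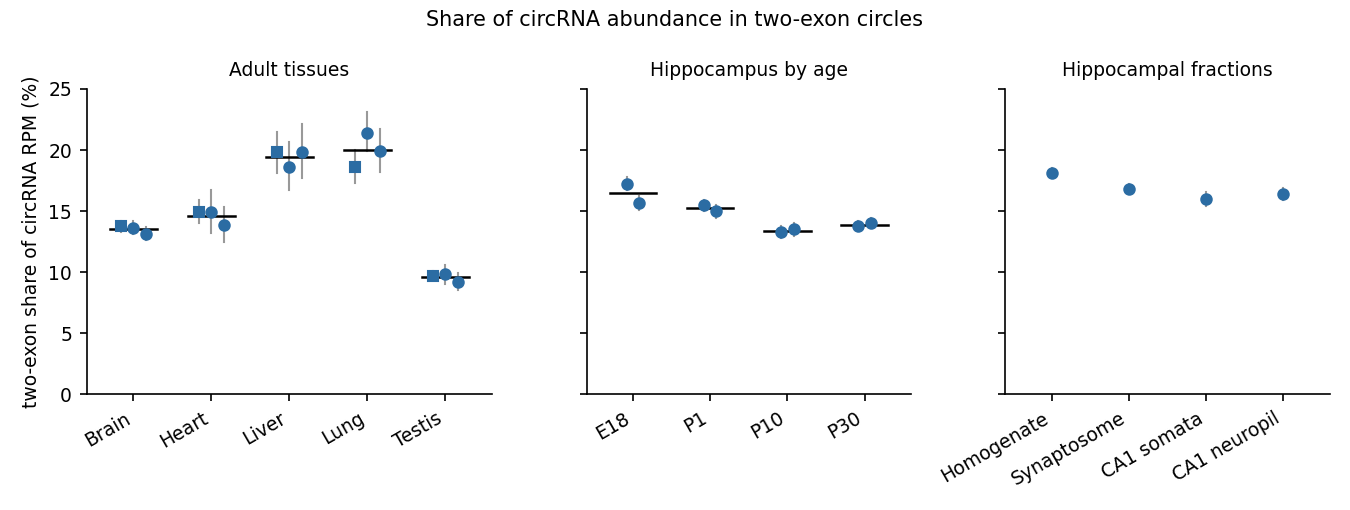
Share of two-exon circles in the summed circRNA RPM of each library, in percent, by adult tissue, by hippocampal stage and in 4 hippocampal preparations; points are libraries (squares, 14-week animals; circles, all others), grey lines are 95% Wilson binomial intervals covering counting error only, and black bars are group means. Testis libraries sit at 9.20% to 9.81% and lung libraries at 18.6% to 21.4%, with brain and heart between them.

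In hippocampus the share was 17.2% and 15.7% at E18, 15.5% and 15.0% at P1, 13.3% and 13.5% at P10, and 13.8% and 14.0% at P30. Both P10 and both P30 libraries lay below all E18 and P1 libraries. Between 2 stages of 2 libraries an exact permutation test cannot go below p = 0.333, and the shares of the stages were not tested.

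Set against its neighbours in exon number, the two-exon class was low relative to single-exon circles in brain. The ratio of summed two-exon to summed single-exon RPM was 1.55, 1.54 and 1.39 in the brain libraries and 1.81 to 3.82 in the other 12, without overlap. The log2 difference was −0.76 (exact permutation p = 0.00220, the smallest possible, 0.00879 adjusted over 4 brain comparisons). The highest ratios were in testis, at 3.82, 3.16 and 2.86. Against three-exon circles no such difference was seen: the ratio was 0.856, 0.782 and 0.752 in brain and 0.632 to 0.992 elsewhere, and the log2 difference was −0.06 (exact permutation p = 0.651). Hippocampal libraries had two-exon to single-exon ratios of 1.13 to 1.67 over the stages and 2.02 to 2.39 in the 4-week preparations.

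**Figure D3:**
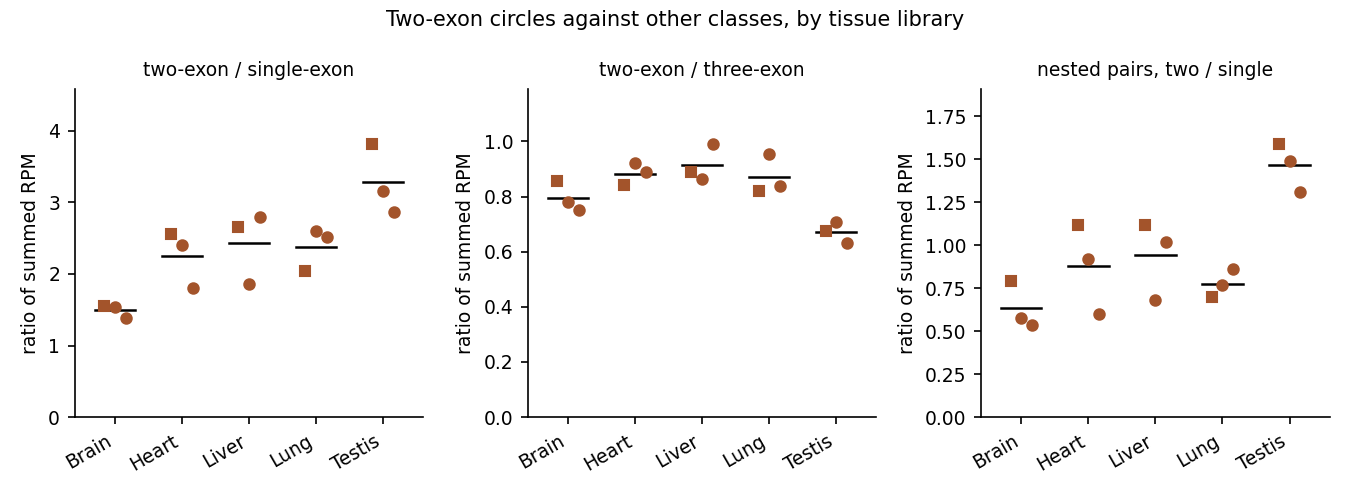
Ratio of summed two-exon RPM to summed single-exon RPM, to summed three-exon RPM, and, over nested pairs, of the two-exon to the single-exon circle, for each tissue library (squares, 14-week animals; circles, 20-week animals; bars, tissue means). In the first panel the brain libraries, at 1.39 to 1.55, lie below all others, and in the second, at 0.752 to 0.856, they lie within the range of the others.

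Nested pairs compare both outcomes within 1 locus. In 420 pairs, involving 396 two-exon circles of 340 hosts, a single-exon circle of the same host used 1 of the 2 exons, the first in 244 and the second in 176. Among the 114 pairs with at least 50 reads, the single-exon circle was the higher in 66 and the two-exon circle in 48. Summed over pairs, the ratio of two-exon to single-exon RPM was 0.789, 0.575 and 0.538 in brain and 0.600 to 1.59 elsewhere, with overlap. The log2 difference was −0.64 (exact permutation p = 0.0440, 0.0879 adjusted over 4 comparisons), so it did not pass after adjustment, and the unadjusted p exceeded the threshold when 1 of several libraries was left out (−0.53 with p = 0.165 without 20-week brain replicate 2).

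Single loci differed widely in this choice. At Tlk1 the single-exon circle of the first exon was at 77.6, 37.1 and 49.8 RPM in brain, with the two-exon circle at 15.3, 90.8 and 72.8 RPM. In the other 12 libraries the single-exon circle was at 0 to 1.38 RPM, while the two-exon circle kept 0.718 to 46.3 RPM. The shared first exon was therefore circularised alone almost only in brain, among these tissues. In hippocampus the single-exon circle reached 5.22 and 4.89 RPM at P30 beside 39.4 and 51.9 RPM for the two-exon circle, and 24.2 RPM in the 4-week homogenate beside 85.6 RPM. At Whsc1 the two-exon circle was detected in every tissue library and the single-exon circle had no read in any of the 15. At Tulp4 it was the reverse: the single-exon circle was at 554 and 567 RPM in the 20-week brain libraries, and the two-exon circle that adds the next exon was at 5.56 and 3.83 RPM. Med13l, a Mediator subunit, followed the same order, with a single-exon circle at 133 and 115 RPM there and a two-exon circle at 0.

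Most two-exon circles that could be tested were higher in brain, as were most circRNAs. Of the 3914, 121 had the minimum of 20 reads over the 15 tissue libraries. With limma on log2(RPM + 1.18), 81 of these 121 were higher in brain than in the mean of the other tissues at an adjusted p of 0.05, against 69.8% of all 847 circRNAs tested. Of the same 121, 5 were lower, against 7.44% of all. The median log2 difference was 1.90 over these two-exon circles and 2.05 over all circRNAs tested. Circles that passed the read minimum only through the tissue in which they were high had to differ, so these counts, and those for the other tissues below, describe the tested circles. The brain counts are near the background. In 41 of the 81 the brain and other libraries did not overlap, and the matching share over all circRNAs was not computed.

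These counts rest on the summed circRNA level, which was 25200 to 30723 RPM in brain and 1287 to 16727 RPM in the other tissues. When every library was scaled to the same circRNA total, the median difference over all circRNAs was 0.31. Then 27 two-exon circles were higher and 9 lower in brain, against 25.5% and 10.3% of all circRNAs tested. When library medians were equalised, the median was −0.42, and 16 were higher and 44 lower, against 14.3% and 33.1% of all. The individual differences below are therefore on the RPM scale, and the circles whose direction turned under another scaling are named.

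By mean RPM over the tissue libraries, the 10 highest two-exon circles came from Tlk1, Whsc1, Rad52, Ep400, Ksr2, Magi1, Arhgap12, Zfp532, Arhgap5 and Ash1l. Magi1 ranked among them through 1 library, at 171 RPM in 20-week brain replicate 1 and at 1.18 and 0 RPM in the other brain libraries. The Tlk1 circle, from a kinase of chromatin assembly, was at 15.3, 90.8 and 72.8 RPM in brain and at 0.718 to 46.3 RPM (median 10.5) in the other 12 libraries. The 14-week brain library lay within the range of the others. Its difference of 1.99 (SE 0.55, limma adjusted p = 0.00411) became −0.79 with equal circRNA totals. The Whsc1 circle, from a histone H3 lysine 36 methyltransferase gene (chr5:34185761-34188916, exons of 626 and 163 bases), was at 54.1, 92.7 and 67.1 RPM in brain and at most 16.8 RPM elsewhere (median 5.36). This difference was 3.38 (SE 0.40, limma adjusted p = 2.80e-06); with equal totals it was 0.75 and no longer passed (adjusted p = 0.117).

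Rad52, a gene of homologous recombination repair, had a circle at chr6:119870128-119871046 with 60, 76.0 and 78.6 RPM in brain and 0 to 11.1 RPM (median 4.23) elsewhere. Zfp532, a zinc finger gene, had a circle with 28.2, 70.4 and 44.1 RPM in brain and 0 to 2.47 RPM (median 0) elsewhere. In both, brain stood apart from every other library. The circles of the GTPase-activating protein genes Arhgap12 and Arhgap5 were less selective, with 24.7 to 48.2 RPM and 5.88 to 46.3 RPM in brain and at most 13.1 and 6.80 RPM elsewhere. The Arhgap12 difference was 2.46 on RPM and −0.21 with equal totals.

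Ep400 and Ash1l, both chromatin genes, gave circles that were high in testis as well as in brain. The Ep400 circle (chr5:111182823-111185785), from the ATPase of the TIP60 chromatin remodelling complex, was at 83.3, 37.4 and 44.9 RPM in testis, at 38.8, 20.4 and 9.58 RPM in brain and at no more than 6.30 RPM in heart, liver and lung. The testis difference from the mean of the other tissues was 3.82 (SE 0.50). The Ash1l circle was at 21.5, 17.0 and 20.7 RPM in testis and at 3.53, 20.4 and 19.2 RPM in brain. Its brain difference of 1.26 (SE 0.44, limma adjusted p = 0.0184) was lost when either 20-week brain library was left out (adjusted p = 0.135 and 0.122) and was −0.90 with equal totals. The Ep400 brain difference of 2.14 was −0.05 with equal totals.

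The largest differences in favour of brain, among circles whose groups did not overlap, came from Ksr2, Zfp532, Rims1, Plcl2, Dbc1 and Fut8. Ksr2, which encodes a scaffold of the RAF-MEK-ERK cascade, had a circle of exons 2 and 3 (chr5:117950722-117955648) at 72.9, 64.9 and 61.3 RPM in brain. It was at 2.14 and 2.15 RPM in 1 heart and 1 testis library and at 0 in the remaining 10. The difference was 5.59 (SE 0.37). This circle passed the read minimum only through the brain libraries, so the value is given as a description. The Rims1 circle, from the presynaptic active zone scaffold, held exons 30 and 31 (chr1:22363425-22369621) and was at 24.7, 38.9 and 30.7 RPM in brain and at 0 in 11 of 12 other libraries. Its difference was 4.71 (SE 0.22), also a description, because the Rims1 circle too passed the read minimum only through brain.

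Plcl2, a catalytically inactive relative of phospholipase C, had a circle at 69.4, 26.0 and 17.2 RPM in brain and at most 2.87 RPM elsewhere. Fut8, the enzyme that adds core fucose to N-glycans, had 1 at 21.2, 27.8 and 32.6 RPM in brain and at most 2.27 RPM elsewhere. The Dbc1 circle was at 38.8, 20.4 and 11.5 RPM in brain and had no read in the other 12 libraries. With a floor of 3 reads over that group it was at least 84.8-fold higher in brain. Zfp532 differed by 4.79, Plcl2 by 4.25, Dbc1 by 4.24 and Fut8 by 4.16, and in each case the 3 brain libraries lay above all others. These circles also passed the read minimum through brain, so their differences are descriptions. No circle lower in brain had groups that did not overlap.

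**Figure D4:**
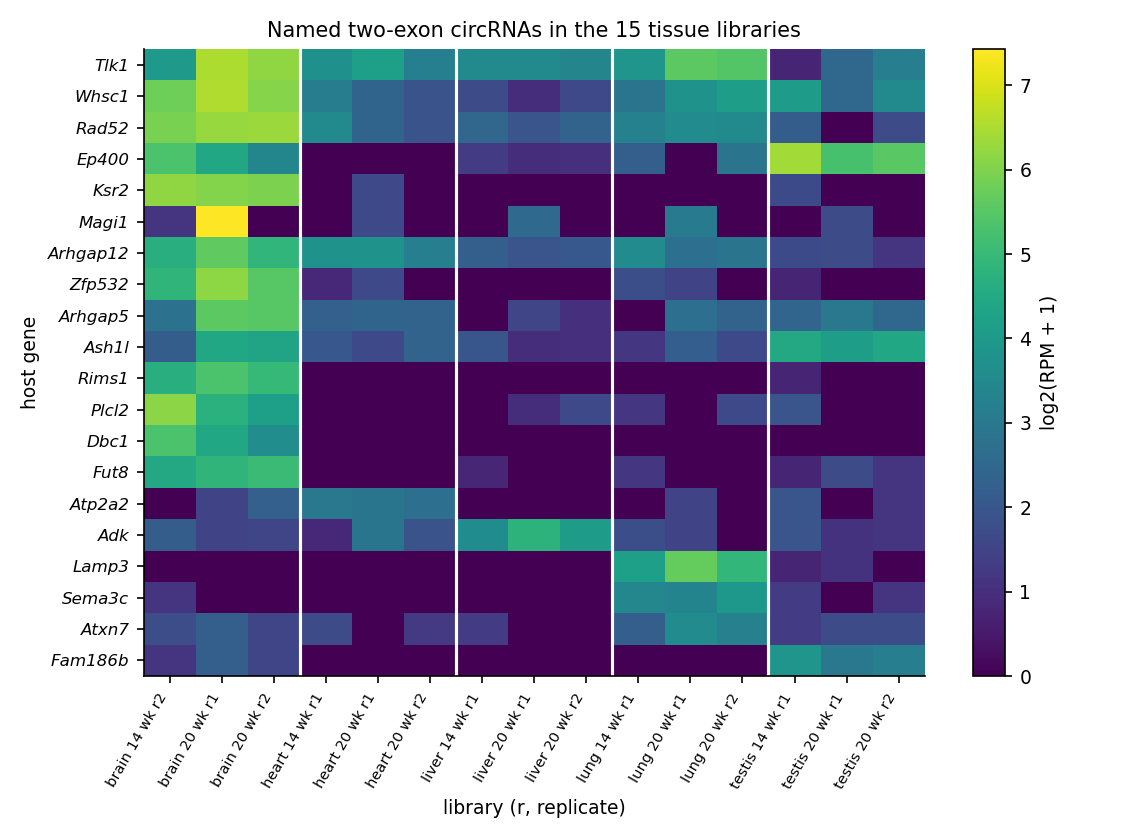
Heat map of log2(RPM + 1), shown by colour, for named two-exon circles (rows, by host gene) in each of the 15 rRNA-depleted tissue libraries (columns, with white lines between tissues). The brain libraries stand apart for Ksr2 and Rims1, the lung libraries for Lamp3, and the tissues overlap for Tlk1.

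Few two-exon circles were higher in heart, liver or lung. Of the 121, 2 were higher in heart (2.83% of all circRNAs tested), 2 in liver (1.30% of all), 10 in lung (3.78% of all) and 19 in testis (24.9% of all). The lung share of two-exon circles, 8.26%, was above that background and the testis share, 15.7%, below it; neither contrast between classes was tested. Leaving out 14-week testis replicate 1 lowered the count over these 4 tissues from 33 to 17.

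The circle with the clearest lung pattern came from Lamp3, a lysosomal membrane protein gene known from alveolar type II cells. It was at 17.3, 50 and 29.4 RPM in lung, at 0.718 and 1.13 RPM in 2 testis libraries and at 0 in the other 10. The lung difference was 4.57 (SE 0.29). Sema3c, a secreted semaphorin, had a circle of exons 10 and 11 at 9.89, 9.25 and 14.7 RPM in lung and at most 1.44 RPM elsewhere (difference 3.12, SE 0.28). Atxn7, a subunit of the SAGA coactivator complex, had one at 3.71, 11.1 and 8.40 RPM in lung. Its 14-week value equalled the highest brain value, 3.71 RPM, within rounding. The Lamp3, Sema3c and Atxn7 circles passed the read minimum only through the lung libraries, so these values are descriptions.

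In heart, the Atp2a2 circle was at 6.91, 6.42 and 5.53 RPM and at 0 to 3.83 RPM elsewhere. Atp2a2 encodes SERCA2, the calcium pump of the cardiac sarcoplasmic reticulum. The difference was 2.03 (SE 0.43). In liver, the circle of adenosine kinase (Adk) was at 11.2, 26.9 and 15.7 RPM against 0 to 6.42 RPM elsewhere (difference 2.55, SE 0.45). In testis the Fam186b circle was at 13.6, 6.80 and 8.06 RPM against at most 3.71 RPM elsewhere (difference 2.76, SE 0.25). In each of these the 3 libraries of the tissue lay above all others, at levels below those of the leading brain circles. The Atp2a2 and Fam186b circles passed the read minimum only through heart and testis, respectively, so their differences are descriptions.

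Set against the RNA of the host gene, fewer circles separated brain. The difference in log2(RPM + 1.18) minus log2(host TPM + 1) was tested for 119 of the two-exon circles. It was higher in brain for 40 of them, against 38.3% of all 827 circRNAs tested, and lower for 12, against 11.2% of all. With equal circRNA totals, 4 were higher and 43 lower, against 5.32% and 34.9% of all. With equal medians these were 1 and 88, against 0.967% and 74.4% of all. The 2 directions thus depend on the scaling of the circRNA values. The count of lower circles was 5 to 7 without any 1 brain library or without 14-week testis replicate 1.

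Man2a1, a Golgi mannosidase gene, had the largest value in favour of the circle, 4.02 (SE 0.47). Its circle was at 4.70, 11.1 and 7.66 RPM in brain and at most 3.70 RPM elsewhere, while the gene was at 14.2, 17.5 and 20.2 TPM in brain and 109 to 137 TPM in liver. Kif16b, a kinesin of early endosomes, followed with 3.38 (SE 0.54), Fbxw8, the substrate receptor of a cullin ubiquitin ligase, with 2.94 (SE 0.43) and Fut8 with 2.69 (SE 0.36). For Kif16b, Fbxw8 and Fut8 these values were 1.08, 0.92 and 0.56 with equal totals and no longer passed. The Man2a1 circle, with 20 tissue reads, and those of Fbxw8 and Fut8 passed the read minimum only through brain, so their values are descriptions.

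The opposite pattern appeared for neuronal genes whose RNA was far lower outside brain. Fam5c RNA was at 54.1, 61.3 and 58.8 TPM in brain and at most 4.15 TPM elsewhere, but its circle had 0, 0 and 1.92 RPM in brain and 13.6, 1.13 and 2.30 RPM in testis (difference −5.38, SE 0.39). With 23 tissue reads, the Fam5c circle passed the read minimum through the 14-week testis library. It was at 0 in heart, liver and lung, so the pseudocount sets much of this difference. Elavl2 and Elavl3, neuronal RNA-binding proteins, had differences of −3.05 and −2.40, with circles that were themselves higher in brain. The Dbc1 difference was −2.51. Where a circle is at 0 outside brain, the pseudocount sets its value there: with a pseudocount 5 times smaller the Elavl2, Elavl3 and Dbc1 values were −1.10, −0.27 and −0.26 and did not pass.

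Gene groups were represented by few circles with enough reads. Of 25 hosts with 47 two-exon circles in the presynaptic list, 2 circles were tested across tissues and both were higher in brain, as were 69.8% of all circRNAs tested; the list summed to 94.9 RPM in brain and 1.34 RPM in the other tissues. The postsynaptic list had 69 circles from 34 hosts, summing to 114 and 3.37 RPM, but only 1 was tested, that of Magi1, and it did not pass. Without 20-week brain replicate 1, which held the high Magi1 value, the postsynaptic sum in brain was 56.0 RPM, an alternative chosen after seeing the data. Ion channel genes had 47 circles summing to 64.7 and 4.56 RPM. Among them the circle of Cacna1c, an L-type calcium channel gene, was at 8.23, 18.5 and 13.4 RPM in brain and also at 6.18, 14.8 and 6.30 RPM in lung. These sums can be read against those of all two-exon circles, 3732 RPM in brain and 655 RPM in the other tissues, which also lay mostly in brain.

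Lists of broadly expressed genes also had few circles tested, and their counts can be read against the 69.8% of all circRNAs called higher in brain and the 24.9% called higher in testis. Transcription and chromatin genes had 85 circles from 38 hosts, with summed means of 118 RPM in brain and 29.9 RPM elsewhere; 4 of 4 tested were higher in brain and 1, Ep400, also in testis. Kinases and phosphatases had 55 circles (101 and 22.7 RPM, 2 of 2 tested higher in brain), RNA-binding and splicing genes 26 (70.9 and 7.06 RPM, 3 of 4), cytoskeleton and motor genes 46 (62.6 and 7.52 RPM, 2 of 2), and ubiquitin ligases 59 (40.6 and 9.38 RPM, none tested). Camsap1, which caps microtubule minus ends, illustrates the middle of this range with 30.6, 20.4 and 19.2 RPM in brain and 0 to 10.8 RPM elsewhere.

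Markers of other cell types contributed almost nothing. The microglia list had no two-exon circle, the endothelial and mural list 2 with 4 tissue reads, the oligodendrocyte list 5 with 9 reads and the astrocyte list 7 with 15 reads. The neuron list had 1 circle with no tissue read, and the progenitor and cell cycle list 1, from Top2a, with 1 read. Nuclear noncoding RNAs had 3 circles, among them that of Pvt1 at 1.85 and 1.92 RPM in the 20-week brain libraries. The heart list had 9 circles, the lung list 2, the testis list 6 and the liver list 5. The testis gene Zpbp, a sperm acrosome protein, had a circle at 1.44, 4.53 and 0 RPM in testis, so this host did not give an abundant two-exon circle there. The most abundant circle of the liver list came from Rtn4, the reticulon gene of the myelin inhibitor Nogo, which was put in that list by mistake. Its circle was at 23.5, 14.8 and 15.3 RPM in brain, 33.8, 6.80 and 9.22 RPM in testis and 0 in liver.

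During hippocampal development more two-exon circles rose than fell. Of the 3914, 261 had at least 20 reads over the 8 stage libraries. With limma on log2(RPM + 0.578), 56 of these were higher at P30 than at E18, against 26.4% of all 1556 circRNAs tested, and 18 were lower, against 5.72% of all. Circles that passed the read minimum only through the stage in which they were high had to differ, so these counts describe the tested circles. In all 74 the libraries of the 2 stages did not overlap. With 2 libraries a stage a call leaves little room for overlap, and the share over all circRNAs was not computed. The median difference was 0.53, against 0.62 over all circRNAs. Scaled to equal circRNA totals, 27 were higher and 36 lower, against 13.0% and 9.90% of all, with a median over all circRNAs of 0.05. The excess of rises among two-exon circles was thus seen on the RPM scale and not at equal totals. The count of rises was 24 without P30 replicate 2, 30 without P30 replicate 1 and 37 without E18 replicate 2. The count of falls was 7 without E18 replicate 1, 8 without E18 replicate 2 and 11 without P30 replicate 2.

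The largest rises were those of Dlgap1, Myrip, Htr4, Cacna1b, Dbc1 and Wscd2. The Dlgap1 circle of exons 10 and 11 (chr17:71110415-71115429) was at 0 and 1.25 RPM at E18, 0 and 0 at P1, 0 and 0.978 at P10, and 20.3 and 17.7 RPM at P30. It passed the read minimum through the P30 libraries, so the P30 minus E18 difference of 4.25 (SE 0.72) is given as a description. Dlgap1 RNA was at 45.7 and 43.5 TPM at E18 and at 269 TPM in both P30 libraries. Myrip, which links Rab-bearing organelles to myosin, had a circle at 0 in both E18 libraries and at 5.80 and 9.77 RPM at P30, at least 8.92-fold higher with a floor of 3 reads over the group.

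Cacna1b, the pore subunit of the N-type calcium channel, had a circle at 0 at E18 and 4.06 and 10.4 RPM at P30, at least 8.28-fold higher on the same floor. Htr4, a serotonin receptor, had one at 0 and then 6.37 and 7.33 RPM, at least 7.86-fold higher. The Dbc1 circle was at 0 at E18 and 7.53 and 5.50 RPM at P30, at least 7.47-fold higher, and the Wscd2 circle went from 1.09 and 0 RPM to 9.85 and 12.8 RPM (difference 3.59, SE 0.65). All 6 had their highest values in the 2 P30 libraries. They passed the read minimum only through those libraries, so their differences and folds are descriptions. The brain-selective circles moved the same way: Ksr2 went from 2.18 and 2.50 RPM at E18 to 36.5 and 23.8 RPM at P30, and Rims1 from 3.81 and 5.61 RPM to 23.2 and 17.1 RPM.

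Of the 6 largest falls, the circle with the highest level at E18 came from Ezh2, the histone H3 lysine 27 methyltransferase of Polycomb repressive complex 2. It held exons 2 and 3 (chr6:47526535-47527666) and was at 77.9 and 81.7 RPM at E18, 60.8 and 72.6 RPM at P1, 17.3 and 17.6 RPM at P10 and 8.69 and 12.2 RPM at P30. The decline was steepest between P1 and P10. It fell by 2.88 on the log2 scale from E18 to P30 (limma adjusted p = 1.08e-08). Ezh2 RNA moved with it, from 124 and 111 TPM at E18 to 20.6 and 18.8 TPM at P30.

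The Erc2 circle fell although its host rose. Erc2 encodes an active zone protein, and its circle of a 24-base and a 417-base exon was at 7.08 and 6.24 RPM at E18 and at 0.580 and 0 RPM at P30 (difference −3.14, SE 0.57, limma adjusted p = 1.83e-04). Erc2 RNA was at 73.4 and 88.5 TPM at E18 and 160 and 182 TPM at P30. Srgap1, a Slit-Robo GTPase-activating protein, went from 15.8 and 12.5 RPM to 3.48 and 0.611 RPM (−2.74). The Sema3c circle, seen above in lung, went from 10.9 and 11.9 RPM at E18 to 2.90 and 0 RPM at P30 (−3.07, adjusted p = 0.155 without P30 replicate 2).

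Ltbp1, which binds latent TGF-beta, went from 5.45 and 3.12 RPM to 0.580 and 0 RPM (−2.53, adjusted p = 0.127 without P30 replicate 2). Fzd3, a Wnt receptor of axon guidance, went from 2.18 and 1.87 RPM to 0 and 0, and was at least 2.27-fold higher at E18 with a floor of 3 reads over the P30 libraries. Its call was lost without P30 replicate 1 (adjusted p = 0.0889) or replicate 2 (adjusted p = 0.0843). For these low circles a few reads decide the call. The Ltbp1 and Fzd3 circles reached the read minimum only with their E18 reads, so their values are descriptions. Among the most abundant circles, Whsc1 also fell, from 80.6 and 71.7 RPM to 45.2 and 35.4 RPM.

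**Figure D5:**
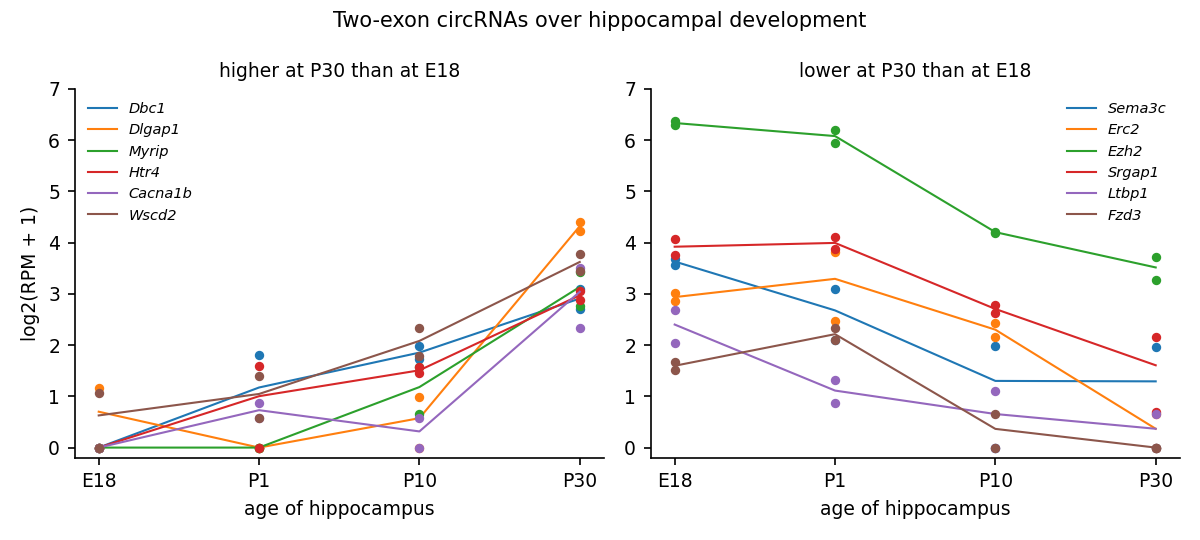
Level of named two-exon circles, as log2(RPM + 1), in the 8 hippocampal stage libraries at E18, P1, P10 and P30, for circles higher (left) and lower (right) at P30 than at E18; points are libraries, and lines join the stage means of RPM put on the same scale. The Dlgap1 circle stays at 0 to 1.25 RPM up to P10 and is at 20.3 and 17.7 RPM at P30, and the Ezh2 circle goes from 77.9 and 81.7 RPM at E18 to 8.69 and 12.2 RPM at P30.

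By step, 1 circle was higher at P1 than at E18 (0.257% of all circRNAs tested) and none was lower. Between P1 and P10, 3 were higher (1.16% of all) and 13 lower (4.05% of all), and between P10 and P30, 32 were higher (14.3% of all) and 3 lower (0.386% of all). These steps share stages, so their values are given side by side. Leaving out any P10 or P30 library lowered the 52 calls of the 3 steps to between 22 and 26. Of the falls at P1, 10 had an unadjusted limma p under 0.05, and none passed after adjustment.

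Smox, spermine oxidase, gave the only call between E18 and P1, from 12.0 and 4.37 RPM to 20.1 and 29.4 RPM (difference 1.66, limma adjusted p = 0.0234). The call was lost when any of 7 libraries was left out, at 0.99 with adjusted p = 0.253 without E18 replicate 2. Between P1 and P10 the Rps6ka5 circle, from the kinase MSK1, fell from 10.6 and 5.71 RPM to 0 and 0.489 RPM (difference −3.41). It was back at 4.64 and 4.28 RPM at P30, a rise of 2.68 (limma adjusted p = 0.00206). The Epha3 circle went from 12.1 and 12.2 RPM at P1 to 1.15 and 0.978 RPM at P10 (difference −2.96), while its Epha7 counterpart was at 3.52 and 1.63 RPM and then at 3.46 and 0 RPM.

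The Fut8 circle rose from 1.00 and 0.816 RPM at P1 to 7.49 and 6.36 RPM at P10 (2.33), and the Nkain2 circle from 1.00 and 0 RPM to 4.61 and 3.91 RPM (2.34). Both calls were lost without either P10 library: without replicate 1 the adjusted p was 0.0885 for Fut8 and 0.128 for Nkain2. Between P10 and P30 Extl3, a heparan sulfate glycosyltransferase gene, rose from 0 in both libraries to 6.37 and 3.66 RPM, at least 6.33-fold, and Dlgap1 rose by 4.36. The Extl3 and Dlgap1 circles passed the read minimum only through the P30 libraries, so these rises are descriptions. The Nkain2 call was lost as well without P1 replicate 2 or P30 replicate 1. Erc2 fell by 2.45 and Srgap1 by 1.47 in that step. Without P30 replicate 2 the Srgap1 difference was −0.59 (adjusted p = 0.424) and that of Erc2 −1.95 (adjusted p = 0.0921). The Srgap1 call was also lost without E18 replicate 1 or either P10 library, and the Erc2 call without P10 replicate 2.

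Among hippocampal lists, the presynaptic genes had 7 circles tested, of which 4 were higher and 1, Erc2, lower at P30 (median 1.25). RNA-binding and splicing genes had 3 of 7 higher and none lower (median 1.29), and kinases and phosphatases 3 of 4 higher (median 1.91). Transcription and chromatin genes had 9 tested with none called and a median of −0.76. The postsynaptic list had 2 of 7 higher and 1 lower, ion channels 1 of 6 higher and 1 lower, and ubiquitin ligases 2 of 3 higher, among them Trim37 from 1.09 and 0 RPM to 5.22 and 4.89 RPM. These shares can be read against the 26.4% and 5.72% called over all circRNAs.

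The 4-week preparations had 1 library each, so ratios between them have no replicate check, and their intervals are exact 95% intervals that cover counting error only. Of 139 two-exon circles with at least 20 reads over the 2 libraries, 21 were more than 2-fold higher in synaptosomes than in homogenate, against 21.8% of all circRNAs compared, and 3 were more than 2-fold lower, against 1.70% of all. The median log2 ratio was 0.43, and 0.52 over all 706 circRNAs, while the circRNA total was 1.46-fold higher in synaptosomes. The Axin2 circle, from a scaffold of the beta-catenin destruction complex, was at 12.1 RPM in synaptosomes and 0.896 RPM in homogenate, a ratio of 13.5 (3.31 to 118). A second Rad52 circle (chr6:119861066-119863121) had a ratio of 10.2 (3.12 to 52.8) and Epha7 one of 6.74 (2.79 to 19.7).

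At the other end, Brsk2, a kinase of neuronal polarity and presynaptic sites, was at 3.29 RPM in synaptosomes and 13.4 RPM in homogenate, a ratio of 0.245 (0.0834 to 0.598). Dgkd, a diacylglycerol kinase, had a ratio of 0.360 (0.104 to 1.02) and Zfp445, a KRAB zinc finger gene, 0.408 (0.169 to 0.895). The most abundant circle, Tlk1, was nearly even at 0.943 (0.755 to 1.18), and Rims1 was at 1.53 (1.06 to 2.22), close to the ratio of the totals.

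Between CA1 neuropil and somata, 21 of 42 two-exon circles were more than 2-fold higher in neuropil, against 44.8% of all 279 compared, and none was more than 2-fold lower. The median log2 ratio was 1.01, close to the 2.05-fold ratio of the circRNA totals. Bcl2l13, a mitochondrial outer membrane protein, had the highest ratio, 7.03 (2.05 to 37.3), from 18 and 3 reads. Arhgap5 followed with 5.27 (2.13 to 15.6). Dcp1a, a cofactor of mRNA decapping, had 4.10 (2.23 to 8.05), with 53.1 RPM in neuropil and 12.9 RPM in somata. This circle was almost absent from the tissue libraries, at 1.85 to 2.35 RPM in brain and 0 elsewhere, and from the stage libraries, at no more than 0.624 RPM. The lowest ratios were those of Enah, an actin regulator, at 0.547 (0.189 to 1.43), the splicing factor gene Celf2 at 1.07 (0.430 to 2.66) and the zinc finger gene Zfp148 at 1.17 (0.461 to 2.98), all with intervals that include 1.

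Two-exon circles were nearly absent from the poly(A)-selected library. That 14-week brain library held 127 circRNA reads, 16 of them from two-exon circles, against 21432 and 2947 in the rRNA-depleted library. All 19 two-exon circles with at least 20 reads over both libraries were more than 2-fold lower, against 99.2% of all 118 compared. The Ksr2 circle had 0 reads and 62 reads, with an upper 95% limit of 0.0321 on the ratio, the Rad52 circle 0 and 51, and the Plcl2 circle 1 and 59, a ratio of 0.00889 (2.21e-04 to 0.0515).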

How the data were processed

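The authors deposited circRNA abundance per library, labelled TPM, for mouse. Its values are whole multiples of 1 step per library (100% within 0.1 read), so they were taken as RPM, made by the authors before they deposited the table, and dividing by the step recovered whole reads. The RPM denominator and the circRNA caller are not given in the sources used here. Host gene levels are TPM as the authors deposited them. Circle structure comes from the blocks (start and size columns) of the mm9 list deposited by the authors. Per the submitters' processing notes, the tools included TopHat2 2.0.6 and Cufflinks 2.2.1 besides CASAVA 1.8.2. No identifier column lacked a sample.

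Tests used limma 3.58.1 in R 4.3.3 (moderated, trend, two-sided, Benjamini-Hochberg over all circRNAs tested) on log2(RPM + pseudocount), 1.18 RPM for tissues and 0.578 RPM for hippocampus, for circRNAs with 20 reads over the libraries. The fits were tested on simulated data. Class shares and ratios used exact permutation tests over libraries (Python 3.11.15, scipy 1.17.1). edgeR 4.0.16 and DESeq2 1.42.0 on recovered reads, other scalings, pseudocounts, filters, blocks and leaving out each library were alternatives. Intervals and the floor of 3 reads cover counting error only. Exon numbers, coding status and sequences come from GENCODE vM21 transcripts matched by host and both exon lengths; no coordinate was converted.

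The two-exon circles, the 19 gene lists and the tests were chosen with earlier results of these data known, so no count over a list is independent support. Named circles are the 10 with the highest tissue mean, the largest calls in each contrast (with groups apart for tissues and for P30 minus E18), the 3 highest and lowest single-library ratios, the length extremes, 1 per list, the hosts with most circles and the 5 nested pairs with most reads. Circles of unnamed gene models were left out of the text, the circle with the widest genomic span is not reported here, and some paralogous pairs and repeats of a gene across contrasts were chosen after their values were seen. Pooled over circRNAs, no difference beyond counting error passed in the 20-week pairs of brain, heart, liver and lung (chi-square p = 0.0663 to 0.815). Heart, liver and lung had only 28 to 44 circRNAs in this test, so a spread there could be missed. Heart had a chi-square per degree of freedom of 1.35 on 32 circRNAs. The hippocampal pairs had 1.17 to 1.30 on 645 to 1141. Single circles could still differ, as Magi1 did in brain with 92 and 0 reads. The 20-week testis pair (chi-square p = 0.00148) and the hippocampal stage pairs (chi-square p = 5.15e-07 to 0.00133) did differ. In the 20-week pairs 3.38% to 13.7% of genes at 10 TPM or more differed over 1.5-fold. None had identical values, so both libraries of each pair were kept.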

Additional observations from a re-analysis of the deposited data

How the results depend on the processing

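The counts of two-exon circles called were 81 higher and 5 lower in brain, 33 higher in another tissue, 56 higher and 18 lower at P30, 52 in the steps between stages, and 40 higher and 12 lower in brain relative to the host. With equal circRNA totals they were 27 and 9 in brain, 27 and 36 at P30, 24 in the steps and 4 and 43 relative to the host; with equal medians 16 and 44, 24 and 41, 22, and 1 and 88. Over all circRNAs tested, equal medians gave 11.1% higher and 12.1% lower at P30. edgeR on recovered reads gave 43 higher in brain with TMM, 37 and 38 at P30 and 31 in the steps, and, with the totals behind the RPM, an alternative chosen after seeing the data, 1 lower in brain. DESeq2 gave 6 higher in brain, 17 in other tissues, 7 and 10 at P30 and 7 in the steps. Over all circRNAs, edgeR with TMM called 42.7% higher in brain, and 15.6% higher and 9.83% lower at P30. For DESeq2 these shares were 8.26%, 4.18% and 3.02%. A filter by the number of libraries with a read gave 365 and 10 in brain, 74 in other tissues, 108 and 35 at P30, 89 in the steps and 143 and 176 relative to the host. Without a filter they were 508 and 3, 73, 1 and 2, 2, and 343 and 1043. Filters change how many circles are tested: across tissues 2653 had a read, against 121 with the minimum of 20 reads. Shares over all circRNAs are not given for the filters, pseudocounts, blocks and library sets. Their counts therefore do not set two-exon circles apart from other circRNAs. A pseudocount 5 times larger gave 2 lower in brain, 90 in the steps and 25 and 31 relative to the host; 5 times smaller gave 24 in the steps and 2 lower relative to the host. A host pseudocount of 5 gave 5 lower relative to the host, and a fit of brain against the pooled others gave 0 lower in brain (limma, none of them at an adjusted p of 0.05). The 20-week libraries alone gave 43 and 1 in brain, 10 in other tissues and 1 lower relative to the host. The cause of these shifts was not tested.

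Replicate numbers did not pair the libraries: same-numbered libraries' deviations correlated at −0.05 to 0.11 over 10 tissue pairs and −0.00 to 0.05 over 6 stage pairs. With the replicate block in the 20-week libraries, 45 and 1 were called in brain, 10 in other tissues, and 27 and 1 relative to the host; with the replicate block in hippocampus, 57 and 24 were called at P30 and 75 in the steps. An age block in the tissues gave 81 and 5.

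Leaving out 1 library at a time gave 57 to 80 higher and 2 to 5 lower in brain, 17 to 31 in other tissues, 24 to 58 higher and 7 to 17 lower at P30, 22 to 52 in the steps, and 27 to 41 and 5 to 13 relative to the host. The log2 share difference ranged from −0.95 to −0.87 for testis and from −0.29 to −0.16 for brain, the two-exon to single-exon difference in brain from −0.81 to −0.71, the two-exon to three-exon difference from −0.11 to −0.02, and the nested difference from −0.80 to −0.53. The nested difference also missed the threshold with only circRNAs of 20 reads (−1.04, exact permutation p = 0.0527) and without the 10 highest circRNAs (−0.54, exact permutation p = 0.0813), both unadjusted; the testis share and the two-exon to single-exon difference passed under all settings run.

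Values that changed sign were the heart share without the 10 highest circRNAs (0.10) and brain differences of Tlk1 (−0.79 with equal totals, −0.49 with equal medians, −0.31 with DESeq2), Ep400 (−0.05 and −0.33 with equal totals and medians), Magi1 (−0.44 with equal medians), Arhgap12 (−0.21 and −0.01) and Ash1l (−0.90 and −1.22, −0.38 with edgeR and TMM, −0.80 with DESeq2). With equal totals the median synaptosome and neuropil ratios were −0.12 and −0.02; no such value was given for the poly(A) library, which held 16 two-exon reads. Depth limits single circles most, since 50.7% had fewer than 5 reads over all mouse libraries.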

Other observations

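Magi1, which encodes a membrane-associated guanylate kinase of cell junctions, ranked among the 10 highest two-exon circles because of a single library. Its circle of exons 3 and 4 (chr6:93742341-93765819, minus strand, exons of 120 and 207 bases) was at 171 RPM in 20-week brain replicate 1, at 1.18 RPM in 14-week brain and at 0 in 20-week brain replicate 2. The table also lists it above 0 in the other 20-week libraries numbered 1, at 4.80 RPM in liver, 7.40 RPM in lung, 2.27 RPM in testis and 2.14 RPM in heart, and at 0 in all those numbered 2 and in the other 14-week tissue libraries. Its brain difference of 2.04 (SE 1.14) did not pass in limma (adjusted p = 0.113). The labels give the replicate number as a number only. Whether the low values in the other libraries numbered 1 are reads of those tissues or were carried over from the brain library was not tested. The junction is shown with the last bases of the second exon in lower case and the first bases of the first exon in capitals.
Magi1: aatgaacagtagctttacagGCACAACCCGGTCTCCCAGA

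Such concentration was rare. Of the 572 two-exon circles with at least 20 reads over all mouse libraries, 2 had 80% or more of their reads in 1 library, against 10 of 3507 among all circRNAs. The other was the second Rad52 circle, with 25 of 31 reads in the synaptosome library. Gtf3c6 came near to it in the tissues, at 20.0 RPM in 14-week brain and 0 in both 20-week brain libraries.

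Several brain circles differed between the 14-week library and the 20-week pair. Elavl3 was at 32.9 RPM at 14 weeks and at 5.56 and 3.83 RPM at 20 weeks, and Smox at 43.5 RPM and then 5.56 and 13.4 RPM. Tlk1 and Arhgap5 went the other way, from 15.3 to 90.8 and 72.8 RPM and from 5.88 to 46.3 and 44.1 RPM. With 1 library at 14 weeks these differences were not tested, and age and library cannot be told apart.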
